A study of Mus musculus with 12 samples.

Results

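The genes described here encode the histone demethylase LSD1 and the proteins that it is known to work with. They are Kdm1a (the gene of LSD1, ENSMUSG00000036940), its paralog Kdm1b (ENSMUSG00000038080), the CoREST scaffolds Rcor1 (ENSMUSG00000037896), Rcor2 (ENSMUSG00000024968) and Rcor3 (ENSMUSG00000037395), the deacetylases Hdac1 (ENSMUSG00000028800) and Hdac2 (ENSMUSG00000019777), the HMG-box subunit Hmg20b (ENSMUSG00000020232), and the DNA-binding repressors Gfi1 (ENSMUSG00000029275) and Gfi1b (ENSMUSG00000026815). The 10 genes were chosen by symbol among the 57010 genes of the count table, for the role of their proteins. Earlier results of these data were known when they were chosen. All 10 passed the filter on low counts, which kept 15425 genes.

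LSD1 removes methyl groups from lysine 4 of histone H3 at promoters and enhancers. It is held to chromatin by a CoREST protein, together with HDAC1 or HDAC2, which remove acetyl groups from histones, and with small DNA-bending subunits such as HMG20B. GFI1 and GFI1B carry a short amino-terminal SNAG domain that binds LSD1 and brings this repressor complex to DNA, and both factors are known to repress their own genes and each other's. Gfi1b is best known from red cell and platelet precursors, Gfi1 from neutrophil precursors and lymphocytes.

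RNA was sequenced from preosteoclasts of female LSD1WT and LSD1cKO mice, grown from bone marrow for 2 days with the cytokines M-CSF and RANKL, which drive marrow cells towards osteoclasts. In LSD1cKO mice a Cre recombinase under the LysM (Lyz2) promoter deletes floxed LSD1 in myeloid cells, and the methods name the genotypes Lsd1LysM-WT and Lsd1LysM-cKO without saying which alleles the controls carry. Each genotype was sampled in 3 cultures with 2 libraries each: mandible of mice that had carried silk ligatures on maxillary molars of both sides for 7 days (ligature-induced periodontitis, LIP), femur of the ligated mice, and femur of mice without a ligature. The labels give an age of 2 months and the sequencing methods 3 months, and name 9 mice, of which 3 gave libraries from both sites. Depth was 21375805 to 32526751 counts per library, so that a count of 0 (taken to allow up to 3 counts, counting error only) would allow 0.0927 to 0.154 CPM. Levels are CPM, that is counts divided by the TMM-scaled library size and set to a common total, p-values are adjusted over the 15425 genes, and SD values are over the 6 libraries of a genotype unless another n is given. With 2 libraries per group, p-values measure only the spread between these samples.

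Some libraries stood apart from the rest. Both femur LSD1WT libraries numbered 2, from a ligated and an unligated mouse, held 168 and 238 summed CPM of 10 osteoclast genes such as Ctsk and Acp5. The other LSD1WT libraries held 26090 to 40906 and the LSD1cKO libraries 11544 to 29103. The femur LSD1WT libraries numbered 2 also had the highest sums of 8 macrophage markers, 12137 and 9715 CPM against 1636 to 4480 in the others, so that their RNA goes against the label of preosteoclasts. Over the 3 cultures, all 10 osteoclast genes had lower fitted levels in LSD1cKO and none was called (0 at an unadjusted p below 0.05). That fit includes the femur LSD1WT libraries numbered 2, and its errors are wide, as in Ctsk (log2 fold change -0.40 ± 1.20 SE). By culture, 10 of 10 were lower in the mandible, 7 of 10 in ligated femur and 4 of 10 in unligated femur. In the mandible the 10 genes summed to 26214 and 26090 CPM in LSD1WT and to 14650 and 14779 CPM in LSD1cKO. The 8 macrophage markers had 1 higher and 7 lower over the 3 cultures, without a call, and 5 higher and 3 lower in the mandible. The 2 mandible LSD1WT libraries were closer to each other than the 2 libraries of any other group. Their mean chi-square was 3.10 per gene against 15.1 to 709 in the other groups, which is still above sampling noise. Pairs across groups were not compared. The library numbered 3 of this pair is mandible by its title and femur by its library name and column heading. In bulk RNA, fewer cells of a kind and less RNA per cell cannot be told apart.

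**Figure D1:**
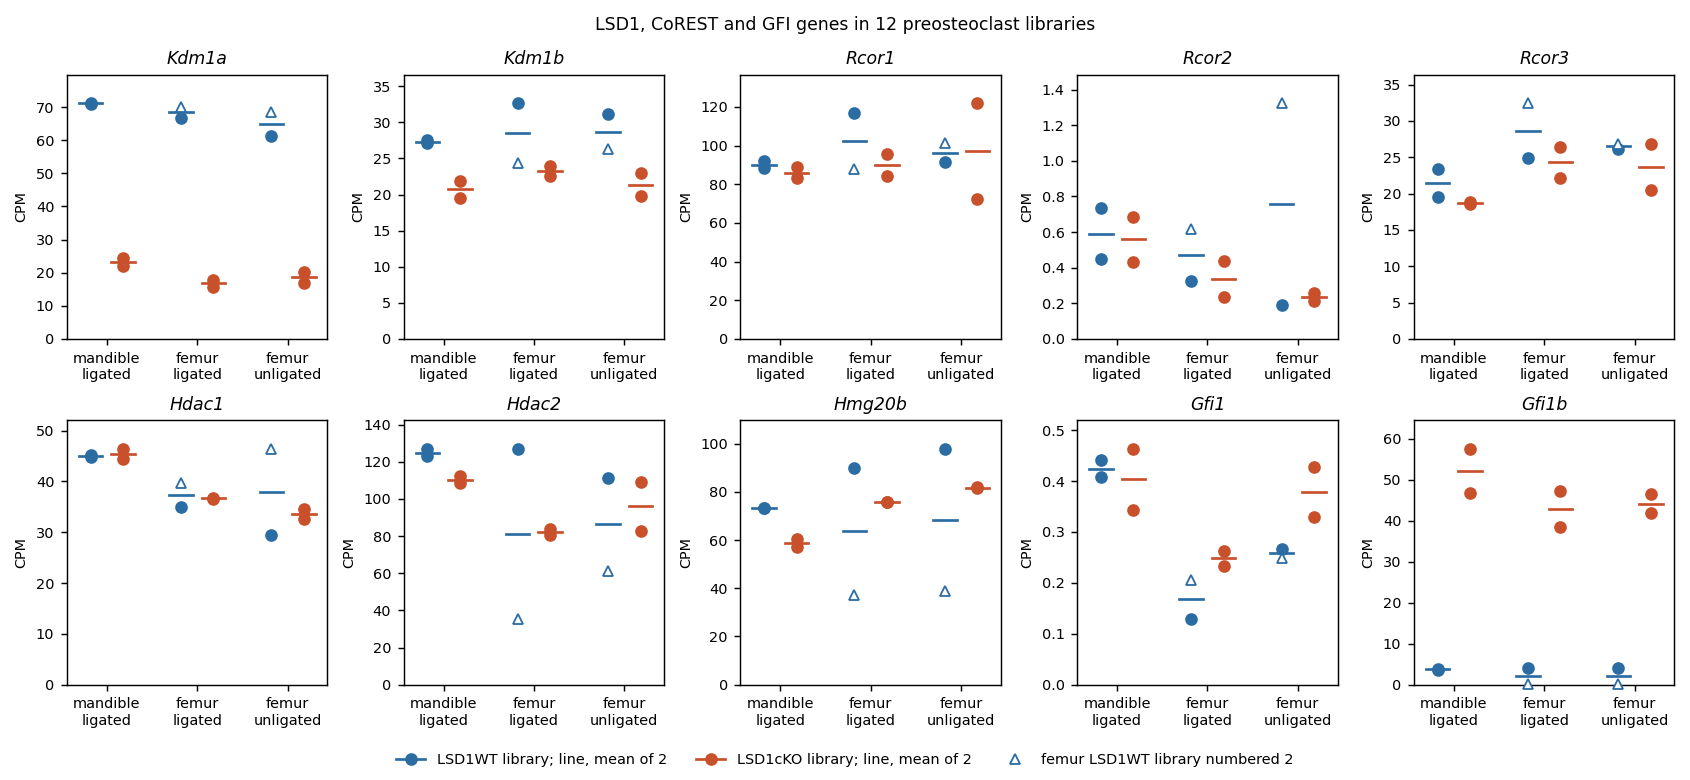
Level (CPM, linear axis from 0, scaled for each gene) of the 10 genes in each of the 12 libraries, by culture and genotype. Points are libraries, lines are means of 2 libraries, and open triangles are the femur LSD1WT libraries numbered 2. Kdm1a and Kdm1b lie lower and Gfi1b higher in all 6 LSD1cKO libraries than in all 6 LSD1WT libraries, and the other 7 genes overlap between the genotypes.

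Over the 3 cultures, Kdm1a fell and Gfi1b rose in LSD1cKO preosteoclasts, and the other 8 genes did not pass the test. The quasi-likelihood test of edgeR, with culture and genotype as terms, thus called 2 of the 10 genes at an adjusted p below 0.05, beside 3.53% of all genes tested (462 higher and 82 lower). The median log2 fold change of the 10 genes was -0.07, and that of all genes tested was -0.06. Without the 2 femur LSD1WT libraries that lacked osteoclast transcripts, the test called 4 of the 10 genes, adding Kdm1b and Hmg20b, beside 25.1% of all genes. The 6 LSD1cKO libraries lay all above or all below the 6 LSD1WT libraries in CPM for 3 of the 10 genes and for 2.78% of all genes. Kdm1a was deleted by design and is 1 of the genes in each of these counts. Its part in them was fixed in advance and says nothing of the other genes.

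**Figure D2:**
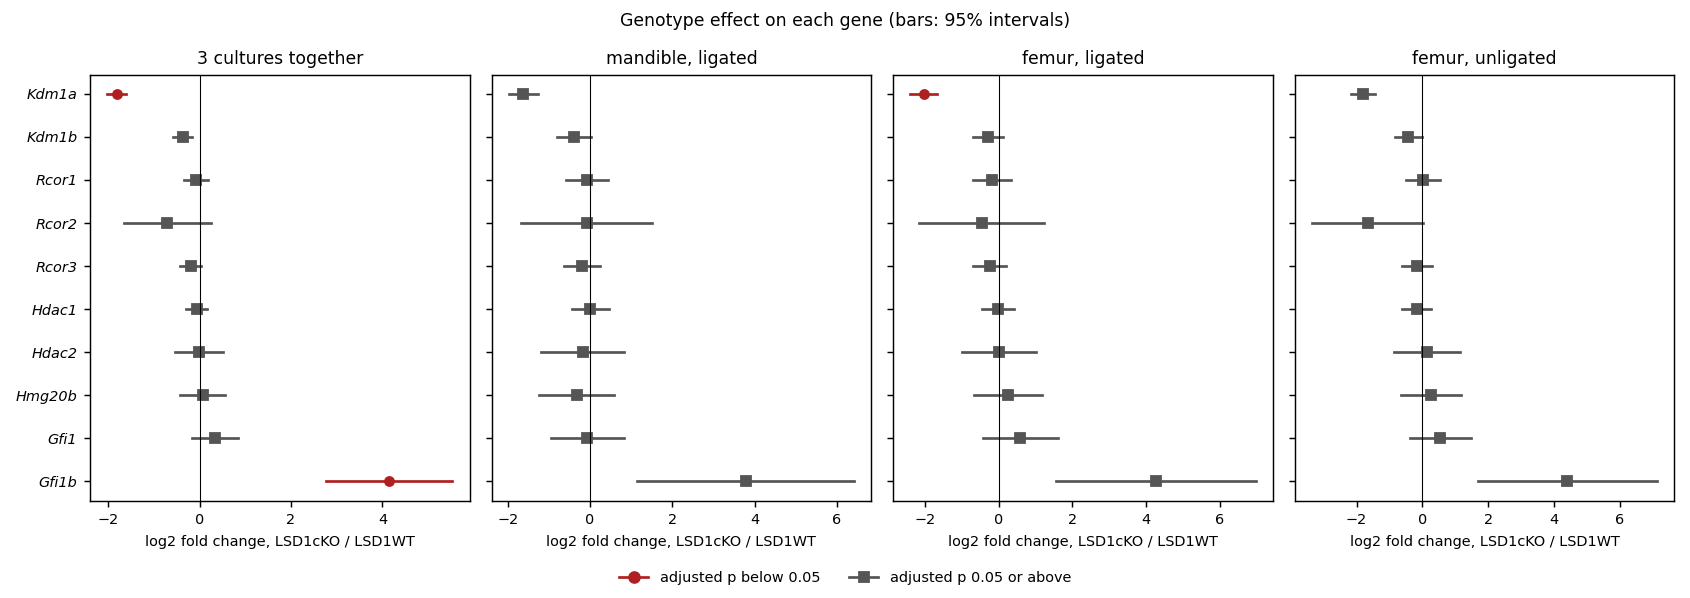
Log2 fold change of LSD1cKO over LSD1WT for the 10 genes, over the 3 cultures (6 libraries per genotype) and in each culture (2 per genotype). Bars are 95% intervals, and red circles mark an adjusted p below 0.05, which Kdm1a (-1.82) and Gfi1b (4.15) reach over the 3 cultures and Kdm1a (-2.03) in the ligated femur.

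Kdm1a, the gene that was deleted, was first read in each library as a check of the labels. In LSD1WT its level was 71.0 and 71.3 CPM in the mandible, 66.8 and 70.1 CPM in the ligated femur, and 61.2 and 68.4 CPM in the unligated femur. In LSD1cKO the same cultures gave 24.3 and 22.1 CPM, 15.6 and 17.8 CPM, and 20.3 and 16.9 CPM. The genotypes did not overlap, and the lowest LSD1WT library stood 2.52-fold above the highest LSD1cKO library. The fitted level was 3.52-fold lower in LSD1cKO (log2 fold change -1.82 ± 0.11 SE, adjusted p = 3.56e-05), the smallest p of all genes tested. No library went against its genotype label.

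LSD1cKO cultures kept 22.8% to 34.2% of the mean LSD1WT level of the same culture, with a mean of 28.6%. Counts per gene do not separate intact from truncated Kdm1a transcripts, and the deleted exons are not given in the sources used here, so this share is not a share of functional LSD1. Lyz2, whose promoter drives the Cre, was read at 1232 to 7579 CPM in LSD1cKO and at 1284 to 35330 CPM in LSD1WT, where the femur libraries numbered 2 had the highest values (35330 and 13829 CPM). The LSD1cKO mandible cultures had the lowest Lyz2 (1232 and 1592 CPM) and kept 34.2% and 31.0% of the Kdm1a level, and the ligated femur cultures had 6435 and 7579 CPM and kept 22.8% and 26.1%. In the unligated femur, Lyz2 was 3089 CPM beside 31.3% in one library and 6937 CPM beside 26.1% in the other. The 3 LSD1cKO libraries with the lowest Lyz2 thus kept more Kdm1a than the 3 with the highest, which is a description and was not tested.

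Within single cultures, the log2 fold change of Kdm1a was -1.62 for mandible (adjusted p = 0.0695), -2.03 in ligated femur (0.0382) and -1.80 in unligated femur (0.0879). In the ligated femur it was the 1 gene called among all genes tested (0.00648%), while the mandible and the unligated femur had no call (0% in both), with 744 and 763 genes at an unadjusted p below 0.05. DESeq2 called 146 genes in the mandible and 118 in the unligated femur, Kdm1a among them in both, and limma voom called none in either. The call in the ligated femur was lost when any 1 of 8 libraries was left out: either mandible LSD1WT library (adjusted p = 0.151 for both), or any of the 6 LSD1cKO libraries (0.0593 to 0.361), with the log2 fold change between -2.07 and -1.94. It was also lost with the replicate number as a block (adjusted p = 0.211), with the mandible LSD1WT libraries summed (0.151) and in the 4 ligated femur libraries alone (0.858). Kdm1a gained a call in the mandible without either ligated femur LSD1WT library (adjusted p = 0.0327 and 0.0275) and in the 4 mandible libraries alone (2.03e-05), where 5261 genes were called. In the unligated femur it gained one without either of these (0.0293 and 0.0268) or without the LSD1WT library numbered 1 of that culture (0.0436). Kdm1a was called in all 3 cultures without the 2 femur LSD1WT libraries numbered 2, with adjusted p-values from 0.00177 to 0.0104.

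Kdm1b (LSD2), the other LSD-family demethylase of histone H3 lysine 4, had lower levels in LSD1cKO, and the difference did not pass the test. Its LSD1WT libraries held 27.2, 27.5, 32.7, 24.3, 31.1 and 26.3 CPM, in the order of cultures above. The LSD1cKO libraries held 21.9, 19.6, 23.9, 22.6, 23.0 and 19.8 CPM. The genotypes did not overlap, but the lowest LSD1WT library was only 1.02-fold above the highest LSD1cKO library. The fitted level was 1.29-fold lower in LSD1cKO (log2 fold change -0.37 ± 0.11 SE) (adjusted p = 0.0985). It passed with DESeq2 (adjusted p = 0.0248) and without the 2 femur LSD1WT libraries numbered 2 (log2 fold change -0.43, adjusted p = 0.00568). Per kilobase of exon, Kdm1a made up 67.6% to 75.4% of the Kdm1a and Kdm1b transcripts in LSD1WT and 40.9% to 54.5% in LSD1cKO.

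Of the 3 CoREST scaffolds, Rcor1 carried most of the transcripts. Per kilobase of exon it made up 85.7% to 93.2% of the CoREST transcripts in the 12 libraries. Rcor1 ranged from 87.8 to 117 CPM in LSD1WT (median 91.6) and from 72.4 to 122 CPM in LSD1cKO (median 86.6), and the genotypes overlapped widely. Its log2 fold change was -0.08 ± 0.14 SE (adjusted p = 0.845), with a 95% interval from -0.34 to 0.19. Rcor3 was read at 19.5 to 32.5 CPM in LSD1WT and 18.6 to 26.8 CPM in LSD1cKO (log2 fold change -0.20 ± 0.11 SE, adjusted p = 0.446). Rcor2, which is known mainly from neural and embryonic stem cells, was low throughout, with 0.191 to 1.33 CPM in LSD1WT and 0.214 to 0.687 CPM in LSD1cKO. The highest Rcor2 value came from the unligated femur LSD1WT library numbered 2, and the difference between genotypes did not pass the test (log2 fold change -0.71 ± 0.49 SE, adjusted p = 0.536).

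The catalytic partner Hdac1 was read at 29.4 to 46.5 CPM in LSD1WT (median 42.3) and 32.7 to 46.3 CPM in LSD1cKO (median 36.7). Its log2 fold change was -0.06 ± 0.12 SE (adjusted p = 0.863, 95% interval -0.29 to 0.17). Hdac2 split the LSD1WT libraries rather than the genotypes. It was read at 123, 127, 127 and 112 CPM in both mandible LSD1WT libraries and the femur libraries numbered 1, but at 35.4 and 61.2 CPM in the femur libraries numbered 2. The LSD1cKO libraries ranged from 80.7 to 112 CPM, above the libraries numbered 2 and overlapping the lowest of the other 4. Over all 12 libraries Hdac2 did not pass the test (log2 fold change -0.00 ± 0.27 SE, adjusted p = 0.997). Without the 2 divergent libraries it was 1.22-fold lower in LSD1cKO (log2 fold change -0.29 ± 0.11 SE) and missed the threshold at an adjusted p of 0.0786.

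Hmg20b, which codes for the BRAF35 subunit, had its lowest values in the same libraries as Hdac2. It was read at 37.0 and 38.7 CPM in the femur LSD1WT libraries numbered 2, at 73.2 to 97.9 CPM in the other 4 LSD1WT libraries, and at 57.1 to 82.1 CPM in LSD1cKO. Over the 12 libraries the log2 fold change was 0.06 ± 0.26 SE (adjusted p = 0.941). Without the 2 divergent libraries it turned to -0.25 ± 0.07 SE and passed the test (adjusted p = 0.0318). The ratio of Hdac2 to Hdac1 counts was 0.893 and 1.32 in the divergent libraries, 2.74 to 3.79 in the other LSD1WT libraries and 2.20 to 3.34 in LSD1cKO. The part of the low osteoclast or high macrophage transcripts in these values was not tested.

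Gfi1b rose in LSD1cKO, with the largest fold of the 10 genes. In LSD1WT it was read at 3.92 and 3.67 CPM in the mandible, 4.07 and 0.257 CPM in the ligated femur, and 4.05 and 0.0828 CPM in the unligated femur (raw counts of 96, 100, 126, 5, 106 and 2). In LSD1cKO the same cultures gave 46.8 and 57.6 CPM, 38.4 and 47.3 CPM, and 46.6 and 41.8 CPM (1364, 1863, 988, 1078, 1307 and 1140 counts). The lowest LSD1cKO library stood 9.42-fold above the highest LSD1WT library. The fitted level was 17.7-fold higher in LSD1cKO (log2 fold change 4.15 ± 0.71 SE, adjusted p = 0.0106), the 9th highest fold of all genes tested.

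The size of that fold depended on the LSD1WT femur libraries numbered 2, where Gfi1b was at or close to the limit that a count of 0 allows. The other 4 LSD1WT libraries averaged 3.93 ± 0.185 CPM (SD, n = 4) against 46.4 ± 6.50 CPM in LSD1cKO (n = 6). Without the 2 libraries the fitted fold was 12.2 (log2 fold change 3.61 ± 0.13 SE, adjusted p = 9.24e-07). Gfi1b kept its direction and its call under all 20 alternatives to this test, with log2 fold changes from 3.61 to 5.0 and adjusted p-values of at most 0.0365.

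In single cultures the log2 fold change of Gfi1b was 3.78 in the mandible, 4.27 in ligated femur and 4.41 in unligated femur, with unadjusted p-values of 0.0212, 0.0137 and 0.0121. None passed the adjustment over all genes (adjusted p = 0.838, 0.541 and 0.710), and DESeq2 called it in both femur cultures (0.0344 and 0.0456). In the 4 libraries of each culture alone, Gfi1b was called in the mandible (adjusted p = 1.03e-05) and in neither femur culture. Without the 2 divergent libraries, which leaves 1 LSD1WT library in each femur group, assumed to vary like the other groups, all 3 passed. The log2 fold changes were then 3.79 in the mandible, 3.47 in ligated and 3.48 in unligated femur (adjusted p = 9.66e-04, 0.00242 and 0.00971).

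**Figure D3:**
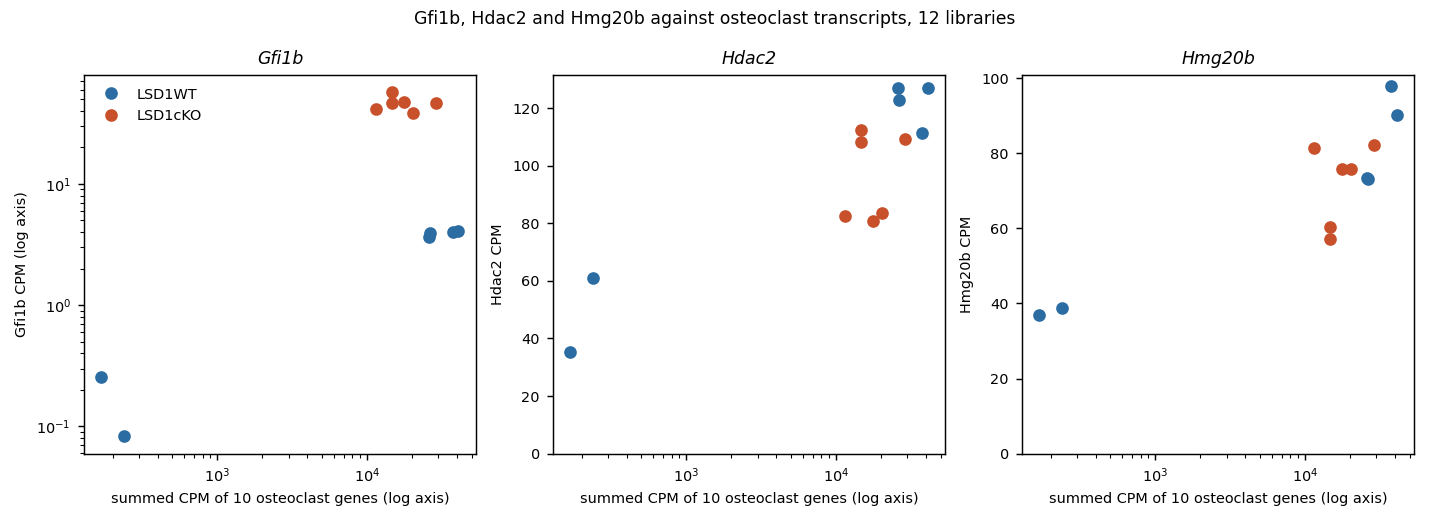
Levels of Gfi1b (log axis), Hdac2 and Hmg20b (linear axes from 0) in CPM against the summed CPM of 10 osteoclast genes (log axis) in each of the 12 libraries. The femur LSD1WT libraries numbered 2 lie at the far left, at 168 and 238 summed CPM, with the lowest value of each gene, and the LSD1cKO libraries hold 38.4 to 57.6 CPM of Gfi1b at 11544 to 29103 summed CPM.

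Gfi1 stayed close to the detection limit in every library, with 4 to 15 reads each. Its level ranged from 0.129 to 0.440 CPM in LSD1WT (median 0.258), and from 0.233 to 0.464 CPM in LSD1cKO (median 0.337). The genotypes overlapped, and the log2 fold change of 0.33 ± 0.26 SE did not pass the test (adjusted p = 0.691). Its 95% interval ran from -0.18 to 0.83, so that a difference of this size was not detectable at this depth. Per kilobase of exon, Gfi1b made up 99.5% to 99.7% of the Gfi1 and Gfi1b transcripts in LSD1cKO and 93.6% to 98.2% in 4 LSD1WT libraries. In the femur LSD1WT libraries numbered 2 this share was 68.5% and 36.7%, from a few reads of each gene.

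The promoters of Gfi1b and Gfi1 are shown because both proteins are known to bind DNA with the core letters AATC and to act on their own genes. RefSeq windows of 300 bases (250 before to 50 after the start, build GRCm38.p6) were matched by symbol for 9 of the 10 genes, in 12 windows. The Gfi1b window is chr2:28621933-28622232 and the upstream Gfi1 window is chr5:107725756-107726055, both on the minus strand. They are printed 5′ to 3′ along the gene, with capitals for AATC or its reverse complement GATT.
Gfi1b: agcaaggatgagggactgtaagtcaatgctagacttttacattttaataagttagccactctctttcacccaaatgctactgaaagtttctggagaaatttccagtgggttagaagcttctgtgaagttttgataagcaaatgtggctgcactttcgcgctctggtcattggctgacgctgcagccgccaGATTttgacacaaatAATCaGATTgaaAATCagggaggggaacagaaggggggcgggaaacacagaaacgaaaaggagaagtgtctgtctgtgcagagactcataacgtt
Gfi1: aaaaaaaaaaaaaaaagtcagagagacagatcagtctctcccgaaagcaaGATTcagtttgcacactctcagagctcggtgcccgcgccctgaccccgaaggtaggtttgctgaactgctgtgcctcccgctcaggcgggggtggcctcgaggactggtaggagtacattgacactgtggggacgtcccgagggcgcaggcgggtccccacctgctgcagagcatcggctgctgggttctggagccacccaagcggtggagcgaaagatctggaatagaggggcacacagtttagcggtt

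The Gfi1b window held 4 matches, 2 on each strand, none overlapping, all between 60 and 30 bases before the start. Of all 32851 windows, 73.1% held at least 1 match on either strand and 10.1% held at least 4. The upstream Gfi1 window held 1 match and its second window (chr5:107724294-107724593) held 0. The Kdm1a window (chr4:136602674-136602973) held 1 match, Kdm1b and Rcor2 held 2 each, the 3 overlapping windows of Hmg20b held 2 each, and Rcor1, Rcor3 and Hdac2 held 0. These letters are a description of the windows, and binding was not measured here.

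Per kilobase of exon, the order of the median levels in LSD1WT was Hdac2 (26.2), Hmg20b (23.3), Rcor1 (16.1), Kdm1a (13.4), Hdac1 (12.3), Kdm1b (4.97), Gfi1b (2.07), Rcor3 (1.87), Rcor2 (0.169) and Gfi1 (0.0809), in CPM per kilobase. Of neighbours in this order, Kdm1a and Hdac1 overlapped in their libraries, as did Hdac2, Hmg20b and Rcor1, Gfi1b and Rcor3, and Rcor2 and Gfi1. In LSD1cKO, Gfi1b had the highest median of the 10 genes (25.5), beside Hmg20b (24.1) and Hdac2 (21.5), with which its libraries overlapped. Kdm1a (3.68) moved down beside Kdm1b (4.05), where the libraries of both genes also overlapped. This order depends on the length used, that of all annotated exons of a gene together (1.83 kb for Gfi1b, 4.47 kb for Hdac2). In CPM, the LSD1cKO median of Gfi1b (46.7) was below those of Hdac2 (96.0), Rcor1 (86.6) and Hmg20b (75.8) and above those of the other genes. In LSD1WT, the median CPM of Gfi1b (3.79) was below that of Rcor3 (25.5).

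**Figure D4:**
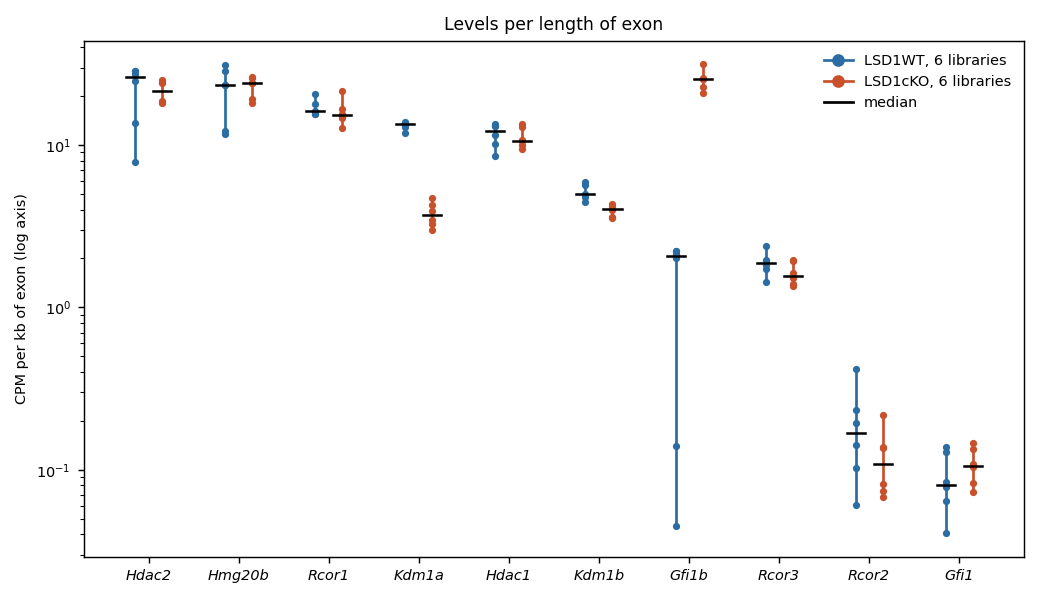
Levels per kilobase of exon (CPM per kb, log axis) of the 10 genes, in the order of their LSD1WT medians. Points are libraries, black lines are medians, and coloured lines span the 6 libraries of a genotype. Gfi1b moves from a median of 2.07 in LSD1WT to 25.5 in LSD1cKO, and Kdm1a from 13.4 to 3.68.

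Whether the genotype effect depended on the skeletal site or on the ligature was tested as an interaction. No gene passed for the site (0%; 149 genes at an unadjusted p below 0.05, 1 call with DESeq2 and 0 with limma voom) or for the ligature (0%; 53 genes, and 0 calls with either tool). None of the 10 genes had an unadjusted p below 0.05 in either interaction. The interaction of Kdm1a with the site was 0.42 ± 0.25 SE on the log2 scale, a smaller decrease in the mandible than in the ligated femur (unadjusted p = 0.134). The interaction of Gfi1b was -0.49 ± 1.72 SE with the site and -0.14 ± 1.73 SE with the ligature, and both changed sign when single femur libraries were left out. With such errors, several-fold differences in the Gfi1b effect between cultures were not detectable.

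Between the mandible and the ligated femur, with genotype as a term, none of the 10 genes was called, beside 16.3% of all genes tested (2520 genes). With the mouse as a fixed block, 4321 genes were called and again none of the 10. The 2 genes with an unadjusted p below 0.05 were Gfi1, which was higher in the mandible (log2 fold change 1.02 ± 0.32 SE, adjusted p = 0.0532), and Rcor3, which was lower (-0.40 ± 0.14 SE, adjusted p = 0.0760). Gfi1 was read at 0.408 and 0.440 CPM in LSD1WT mandible, 0.129 and 0.205 CPM in ligated femur, and 0.343 and 0.464 against 0.233 and 0.263 CPM in LSD1cKO. These levels rest on 15 reads or fewer in each library. In the unligated femur, the LSD1cKO libraries (0.428 and 0.330 CPM) overlapped those of the mandible, and the LSD1WT libraries (0.267 and 0.248 CPM) did not. DESeq2 called Rcor3 (adjusted p = 0.0225), and limma voom, with mouse as a random block, called Rcor3 and Gfi1 (0.0256 and 0.0294). Rcor3 was also called without the ligated femur LSD1WT library numbered 1 (adjusted p = 0.0370), and Hdac1 and Hmg20b were called without the 2 divergent libraries (log2 fold changes 0.34 and -0.34). With the mandible LSD1WT library numbered 3 taken as femur, no gene was called.

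Between ligated and unligated femur, none of the 10 genes was called and none had an unadjusted p below 0.05. edgeR called no gene at all there (0%), with 612 genes at an unadjusted p below 0.05, against 5 calls with DESeq2 and 1 with limma voom. The median size of the log2 fold change was 0.07 for the 10 genes and 0.16 for all genes tested. The largest was that of Gfi1, -0.62 ± 0.32 SE (unadjusted p = 0.0986).

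Other subunits of LSD1 and CoREST complexes did not pass the test between genotypes. Of 10 further CoREST-CtBP genes, 0 were called by edgeR, with 3 higher and 7 lower, 2 at an unadjusted p below 0.05, and a median log2 fold change of -0.12 against -0.06 over all genes. The smallest p belonged to Zfp217, which codes for a zinc finger partner of CoREST and CtBP, with 105 ± 25.5 CPM in LSD1WT and 139 ± 41.5 CPM in LSD1cKO (log2 fold change 0.41, adjusted p = 0.126). It passed with DESeq2 (adjusted p = 0.0442) and without the unligated femur LSD1cKO library numbered 2 (log2 fold change 0.54, adjusted p = 0.0213).

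NuRD, the other large complex that holds HDAC1 and HDAC2, likewise had 0 of 12 subunits called, with 1 at an unadjusted p below 0.05 and a median log2 fold change of -0.06. That subunit was Mbd3, with 49.9 to 115 CPM in LSD1WT and 50.7 to 91.7 CPM in LSD1cKO (log2 fold change -0.32, adjusted p = 0.265). It passed without the 2 divergent libraries (log2 fold change -0.35, adjusted p = 0.0334). Of 8 other transcription factors with a SNAG domain, only Snai1 was high enough to be tested, at 0.601 ± 0.440 and 1.03 ± 0.699 CPM (log2 fold change 0.64, adjusted p = 0.659). Scrt1 and Scrt2 had no read in any library.

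Among enzymes that act on the same histone marks, 12 JmjC demethylases of H3K4 and H3K9 all had a lower fitted level in LSD1cKO. Their median log2 fold change was -0.23 against -0.06 over all genes. Kdm3a was the only call, beside 3.53% of all genes tested, and the only one of the 12 at an unadjusted p below 0.05. By culture, 9 of the 12 were lower in the mandible, 11 in ligated femur and 10 in unligated femur, without a call. Kdm3a, which demethylates lysine 9 of histone H3, was read at 82.3 ± 13.6 CPM in LSD1WT and 58.0 ± 6.32 CPM in LSD1cKO (log2 fold change -0.50 ± 0.11 SE, adjusted p = 0.0333). Its libraries overlapped (67.1 to 107 CPM and 51.7 to 69.1 CPM), and it remained called under 6 of 20 alternatives. Leaving out any 1 of 9 libraries ended the call, namely the mandible LSD1WT libraries numbered 1 and 3, the ligated femur LSD1WT library numbered 2, the unligated femur LSD1WT library numbered 1, both mandible and both ligated femur LSD1cKO libraries, and the unligated femur LSD1cKO library numbered 2 (adjusted p = 0.0663 to 0.138). Of 12 genes of the H3K4 methyltransferase complexes, 0 were called by edgeR and 1, Ash2l, had an unadjusted p below 0.05 (61.0 ± 5.73 and 52.0 ± 6.45 CPM, adjusted p = 0.265).

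Of 15 genes known as targets of GFI1, 14 were tested and 1 was called, beside 3.53% of all genes tested. The called gene was Cebpe, a transcription factor of late granulocyte development. It rose from 1.25 ± 0.473 CPM in LSD1WT to 5.04 ± 1.64 CPM in LSD1cKO (log2 fold change 1.96 ± 0.32 SE, adjusted p = 0.00896). Its LSD1WT libraries lay from 0.580 to 1.83 CPM and its LSD1cKO libraries from 3.54 to 7.93 CPM, without overlap, and it was called under all 20 alternatives. The other 13 had 5 higher and 8 lower fitted levels, none called. By culture, 11 of the 14 were higher in the mandible (median log2 fold change 0.42), 5 in ligated femur (-0.48) and 6 in unligated femur (-0.46), without a call, and the femur values include the divergent LSD1WT libraries. The medians of all genes in these cultures were 0, -0.12 and -0.05, and 1, 2 and 2 of the 14 had an unadjusted p below 0.05. Egr2 was read at 5.04 ± 4.34 and 6.98 ± 4.08 CPM (log2 fold change 0.70, adjusted p = 0.270), the M-CSF receptor gene Csf1r at 1957 ± 1054 and 1221 ± 509 CPM (-0.62, adjusted p = 0.322), and E2f5 at 9.08 ± 0.813 and 11.2 ± 2.14 CPM (0.31, adjusted p = 0.367).

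Gfi1b is also known from blood stem cells and from red cell, platelet and mast cell precursors, so the markers of these cells were read beside it. The summed level of 10 erythroid markers was 0.0970 to 3.95 CPM in LSD1WT and 0.285 to 0.790 CPM in LSD1cKO, with the erythroid gene Slc4a1 at 0 in all 12 libraries. The 7 megakaryocyte markers summed to 10.9 to 905 CPM in LSD1WT and 15.9 to 61.8 CPM in LSD1cKO. The highest sums were those of the femur LSD1WT libraries numbered 2 (905 and 439 CPM). Pf4 alone reached 883 CPM in LSD1WT, so that the highest sum was mostly that of 1 gene. Itga2b, Ppbp and Gp9 reached at most 5.23, 14.3 and 0.462 CPM in LSD1WT. Of 6 tested, 3 were higher and 3 lower, without a call, and Gp1bb was at 0 throughout. The sum of 8 mast cell and basophil markers was 1.16 to 5.39 CPM in LSD1WT and 6.30 to 10.4 CPM in LSD1cKO. This list shares Gata2 and Kit with the stem and progenitor markers below, so the sum is not particular to mast cells and basophils. Of these 8, 3 were tested and all had higher fitted levels in LSD1cKO without a call: Hdc (0.331 to 1.08 and 0.343 to 2.29 CPM, adjusted p = 0.0990), Gata2 (1.48 ± 1.16 and 3.57 ± 2.13 CPM, adjusted p = 0.315) and Kit (1.64 ± 0.836 and 3.05 ± 0.850 CPM, adjusted p = 0.325). Hdc passed without the mandible LSD1cKO library numbered 1 (log2 fold change 1.61, adjusted p = 0.0298) and with DESeq2 (0.0139). Hdc and Gata2 passed without both divergent libraries (adjusted p = 0.0343 and 0.0191). Fcer1a was at 0 in every LSD1cKO library and in the mandible and unligated femur LSD1WT libraries, and the other 7 markers of this list were above 0 in at least 1 library of each genotype. The 8 stem and progenitor markers summed to 78.8 and 92.9 CPM in the mandible LSD1cKO libraries against 25.1 and 24.0 CPM in LSD1WT, and to 24.8 to 36.5 CPM in the femur LSD1cKO libraries against 20.9 to 49.7 CPM. Flt3, Gata2, Kit and Meis1 reached at most 3.42, 6.68, 4.45 and 4.39 CPM in LSD1cKO, so that most of the mandible sums came from other genes of this list. In the mandible 6 of the 8 were higher and 2 lower (median log2 fold change 0.22), with 1 at an unadjusted p below 0.05 and no call. Over the 3 cultures 4 of the 8 were higher and 4 lower, without a call. The part of these cells in the Gfi1b values was not tested.

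Genes whose log2 CPM followed Kdm1a or Gfi1 most closely over the 12 libraries were named by Pearson's r, as a description, since all libraries share the genotype split and the 2 divergent LSD1WT samples. For Kdm1a they were Btbd6 (r = 0.965), Bap1 (0.961), Slc30a9 (0.957), Chmp1a (0.941) and Tmem250-ps (0.923). For Gfi1 they were Ppp1r16b (0.826), Gm10355 (0.812), Prkar1b (0.804), Gm8532 (0.786) and Gfra1 (0.781), most of them as low as Gfi1 itself. For Gfi1b, read in the same way after its values were seen, they were Unc13b (0.989), Gm5424 (0.989), Fgr (0.988), Rala (0.987) and Pmm1 (0.986), with Fgr, a Src-family kinase of myeloid cells, at a mean of 17.0 CPM in LSD1WT and 126 CPM in LSD1cKO.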

How the data were processed

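Libraries of polyA RNA were compared from 12 samples in 6 groups of 2. The values are raw counts per gene, which the authors deposited without normalization. The submitters' processing notes name HISAT2 2.1.0, FastQC, featureCounts, edgeR and build GRCm39. The strand setting and annotation version are not given in the sources used here. In R 4.3.3 with edgeR 4.0.16, genes were kept with filterByExpr (minimum count 10) and scaled by TMM, and quasi-likelihood models were fitted to the 12 libraries with 1 term per group, or with culture and genotype as terms, adjusted by Benjamini-Hochberg. Standard errors are the log2 fold change divided by the root of its F statistic, and 95% intervals take a normal quantile of them, so they are approximate. Alternatives used DESeq2 1.42.0 (its independent filtering off) and limma 3.58.1. Exon lengths came from GENCODE vM21 by Ensembl identifier, as the bases covered by any annotated exon of a gene, and promoters from RefSeq. The tests were checked on simulated counts with 200 genes changed 4-fold. The test over the 3 cultures recovered 92% of them with 5 false calls, and the test in the mandible recovered 42.5% with 1 false call. A missing call in a single culture is thus weak evidence of no change. Deviations of libraries of the same mouse from their group means had r = 0.030 in LSD1WT and 0.026 in LSD1cKO between sites. With 2 libraries per group, and a divergent library in the ligated femur of LSD1WT, these values cannot decide whether libraries of a mouse vary together. By their labels 3 mice gave both sites, so the site comparison was also blocked by mouse. Named genes are the 10 genes, Lyz2, genes among the 4 of smallest p in each list, and the 5 genes most like Kdm1a and the 5 most like Gfi1. The 5 genes most like Gfi1b, and list genes named as examples or as being at 0 (Acp5, Slc4a1, Gp1bb, Fcer1a, Scrt1, Scrt2), were chosen after their values were seen. The genes and lists were chosen with earlier results of these data known.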

Additional observations from a re-analysis of the deposited data

How the results depend on the processing

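Kdm1a, Gfi1b and Cebpe kept their direction and their call over the 3 cultures under all 20 alternatives. The count of all genes called there was 544, and 279 to 703 with 1 library left out, 1248 with DESeq2, 3869 without both femur LSD1WT libraries numbered 2 (4 of the 10 genes), 312 with the mandible LSD1WT library numbered 3 taken as femur and 306 with the mandible LSD1WT libraries summed into 1. In the mandible the counts of all genes, and of the 10 genes, were 146 and 1 with DESeq2, 45 and 1 without the filter, 914 and 2 without both femur libraries, 5261 and 4 in its own 4 libraries, and 0 to 25 and 0 to 1 with 1 library left out. In the ligated femur they were 9 and 1 with RLE scaling, 214 and 2 with DESeq2, 93 and 1 without the filter, 12 and 1 with limma voom, 16 and 1 with library 3 as femur, 1512 and 2 without both femur libraries, and 0 to 44 and 0 to 1 with 1 library left out, and they were 0 and 0 with the summed libraries, in its own 4 libraries and with the replicate number as a replicate block. In the unligated femur they were 118 and 2 with DESeq2, 24 and 1 without the filter, 438 and 2 without both femur libraries, and 0 to 16 and 0 to 1 with 1 library left out. Between sites 4031 genes (1 of the 10) were called with DESeq2, 4140 (2) with limma voom, 4423 (2) without both femur libraries, 4321 with the mouse as a fixed replicate block, 794 with the replicate number as a replicate block, 581 with the summed libraries, 0 with library 3 as femur, and 565 to 4147 (0 to 1) with 1 library left out. For the ligature, DESeq2 called 5 genes, and limma voom, the run without the filter and the run without both femur libraries 1 each, with 0 to 1 when 1 library was left out. The site interaction had 1 call with DESeq2.

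The sign of Hdac2 over the 3 cultures turned to 0.0046 with RLE scaling, 0.0047 with DESeq2, 0.051 without the filter, 0.19 with the replicate number as a replicate block, 0.17 with limma voom and 0.015 with the summed libraries (-0.12 to 0.30 with 1 library left out). Its value was close to 0, and the median of all genes moved by 0.011, 0.011 and 0.064 under the first 3 of these settings, so that these changes of sign say nothing particular of Hdac2. Without both femur libraries, Rcor2 turned to 0.058, Hdac1 to 0.12, Hmg20b to -0.25, Lyz2 to 0.33 and the site interaction of Gfi1b to 0.32. With 1 library left out, Rcor1 ran from -0.20 to 0.039, Hdac1 from -0.079 to 0.084, Hmg20b from -0.051 to 0.27 (from -0.29 to 0.14 between sites), Kdm1b in the ligated femur from -0.41 to 0.012, and the interactions of Gfi1b from -3.64 to 0.35 (site) and -4.69 to 3.00 (ligature). The cause was not tested. LSD1WT and LSD1cKO samples shared only a replicate number (r from -0.023 to 0.22). That replicate block ended the calls of Kdm1a in the ligated femur and of Kdm3a (adjusted p = 0.0865) and changed no other call of the 10 genes. The median of all genes in the ligated femur moved by 0.12 without the filter. Gfi1, Rcor2 and the divergent libraries' Gfi1b rest on few reads, which limits their precision.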
